A study of Rattus norvegicus with 16 samples.

Results

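The microRNA (miRNA) content of the whole hippocampus was measured in 3 naive Sprague-Dawley rats, which were sacrificed with no injury, surgery or drug. These are 3 of the 16 arrays of a series on lateral fluid percussion brain injury, and were taken by their label. The other 13 arrays hold rats with an injury (TBI) without a drug (3 arrays), with PMI (3), with JM6 (3) or with E33 (2), and sham-operated rats (2), all at 24 h. Each array carries 938 probes for 350 rat miRNAs, 1 rat was used per array, and the 3 naive arrays lie on 1 slide that was scanned in 1 run. That slide also held the 3 TBI arrays without a drug and 2 of those with PMI. All remaining arrays lay on a second slide. The rats of a group are described as separate biological samples. Their age is not given in the sources used here. No group was compared with another, so the values below are descriptions and carry no test. With 3 arrays, their number limits the precision. As there is 1 array per rat, a difference between rats cannot be told apart from one between arrays.

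A mature miRNA is a short RNA cut from a hairpin precursor and loaded into an Argonaute protein, where its seed, bases 2 to 8 from the 5′ end, pairs with sites in target mRNAs and lowers their output. miRNAs with the same seed are grouped into families. Some are made mainly in neurons (miR-124, miR-128, miR-9), some in myelinating oligodendrocytes (miR-219, miR-338), and others in blood, vessels or the choroid plexus, so a profile of whole hippocampus holds all of these cells together. In such bulk tissue, fewer cells of a type and less miRNA per cell cannot be told apart.

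The mature sequences below are those of miRNAs at the top of the ranking and, in the last set, of miRNAs that differed most between arrays. They come from RefSeq (GRCr8), in which 311 of the 350 array names were matched through the probe. The seed is in capitals, and names are those of the array, which uses an older naming. miR-124, the 4th in rank, was not matched and is named only. The first set shares the seed AGCACCA and holds the miRNAs at ranks 1, 2 and 12.
miR-29b: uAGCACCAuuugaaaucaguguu
miR-29a: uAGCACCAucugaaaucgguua
miR-29c: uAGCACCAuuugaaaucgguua

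The second set is the let-7 family with the seed GAGGUAG, of which 6 members were among the 20 brightest.
let-7c: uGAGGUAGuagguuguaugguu
let-7a: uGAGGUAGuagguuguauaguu
let-7f: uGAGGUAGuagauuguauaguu
let-7b: uGAGGUAGuagguugugugguu
let-7d: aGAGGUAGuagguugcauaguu
let-7i: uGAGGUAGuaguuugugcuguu

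The third set holds the neuron and oligodendrocyte miRNAs among the 20 brightest, each with a seed of its own. miR-9 and miR-9* are opposite strands of the same hairpin.
miR-128: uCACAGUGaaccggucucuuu
miR-9*: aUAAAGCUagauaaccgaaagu
miR-9: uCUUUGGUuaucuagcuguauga
miR-218: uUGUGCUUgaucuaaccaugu
miR-129*: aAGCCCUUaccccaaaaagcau
miR-338: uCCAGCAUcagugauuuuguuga
miR-219-5p: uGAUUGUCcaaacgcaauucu

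The fourth set holds the 6 miRNAs that differed most between the 3 naive arrays among those detected on all 3. miR-34b, miR-34c and miR-34a share the seed GGCAGUG.
miR-34b: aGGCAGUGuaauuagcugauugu
miR-34c: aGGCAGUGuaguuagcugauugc
miR-34a: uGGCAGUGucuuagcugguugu
miR-204: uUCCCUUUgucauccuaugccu
miR-143: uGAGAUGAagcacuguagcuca
miR-451: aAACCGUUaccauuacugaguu

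The signal of a miRNA is the background-subtracted intensity of its brightest probe, averaged over replicate spots. Its share is that signal as a percent of the sum over all 350 miRNAs of the array. Probes differ in how strongly they bind, so the ranking orders probe signals and is not a count of molecules. A probe was taken as detected where at least 50% of its spots were marked well above background by the scanner software. By this measure 167 miRNAs (47.7%) were detected on all 3 naive arrays, 35 on 2 arrays, 21 on 1 array and 127 (36.3%) on none. The 167 gave 99.4% of the summed signal and the 127 gave 0.117%.

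The number detected differed between the arrays. Naive 1, naive 2 and naive 3 detected 167, 223 and 202 miRNAs, and the sets were nested: every miRNA detected on naive 1 was also detected on naive 3, and every one of naive 3 on naive 2. The dimmest detected probe had an intensity of 92.0 on naive 1, 28.9 on naive 2 and 37.8 on naive 3. The SD of the negative control spots was 37.0, 8.39 and 8.66 in the same order. Naive 1 had the widest background and the fewest detected miRNAs of the 3. Of the 56 miRNAs detected on naive 2 and not on naive 1, 40 had an intensity on naive 2 that lay under the dimmest detected probe of naive 1. After scaling, 52 of the 56 also had a lower signal on naive 1 than on naive 2. What part the background of naive 1 had in its lower count was not tested. Without naive 1, 202 miRNAs were detected on both remaining arrays. The other 13 arrays of the series detected 165 to 247 miRNAs, so the naive arrays lay within their range.

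**Figure D1:**
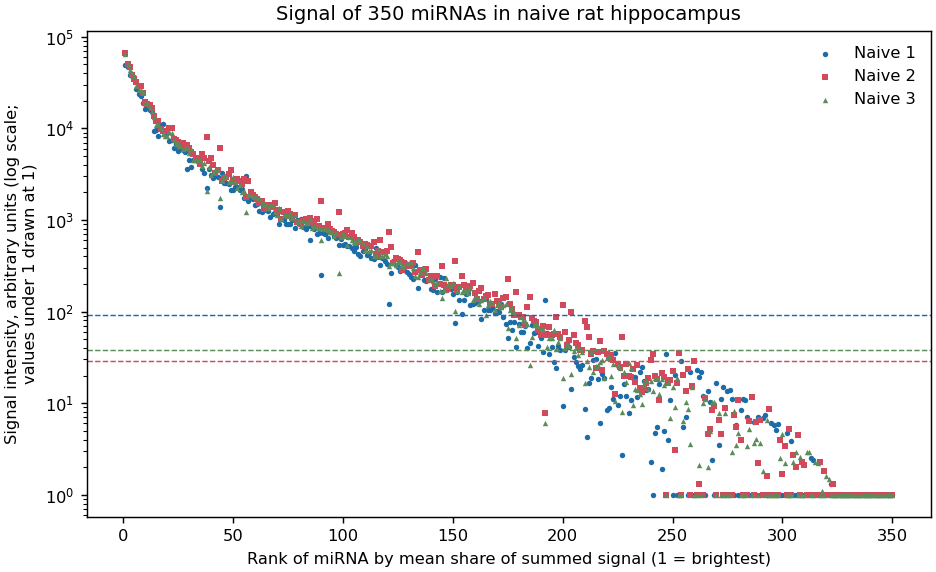
Signal intensity (log scale, arbitrary units) of the 350 miRNAs on each naive array, against their rank by mean share. Dashed lines mark the dimmest detected probe of each array, at 92.0 (naive 1), 37.8 (naive 3) and 28.9 (naive 2), and the arrays spread apart below them.

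The dimmest miRNAs detected on all 3 arrays were miR-379*, miR-300-5p and miR-758, all from the Dlk1-Dio3 cluster on chromosome 6. miR-379* had intensities of 120, 113 and 112 on naive 1 to 3. The brightest miRNA detected on none was miR-106b*, with 134 on naive 1 but 7.8 and 6.0 on the other arrays. The next were miR-380 (30.2, 24.1 and 25.2) and miR-30b-3p (20.9, 22.8 and 29.9), which were alike on the 3 arrays. The brightest miRNA stood 525-fold above the dimmest detected on all 3, in mean intensity.

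The signal was held by few miRNAs. The 10 brightest gave 50.1% ± 1.07 of the summed signal (SD, n = 3 arrays), the 20 brightest 67.6% ± 1.34, and the 100 brightest 96.5% ± 0.230. To reach 90% took 58 miRNAs, and to reach 99% took 148. The brightest of all was miR-29b, at 8.59% ± 0.727. Its intensity was 49275, 66102 and 65723 on naive 1 to 3, and its probe lies at chr4:58108190-58108211 (rn4). miR-29a, encoded beside it at chr4:58107816-58107834, followed with 7.09% ± 0.333 and intensities of 46796, 51078 and 50697. miR-29b was lowest on naive 1 and nearly equal on the other arrays, but it stood first on all 3.

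Rank 3 was held by miR-125b-5p, a miRNA of neural and many other tissues, with 6.16% ± 0.0235 and intensities of 38734, 46791 and 43784. Ranks 4 and 5 were held by the neuronal miRNAs miR-124 (5.50% ± 0.450) and miR-128 (5.22% ± 0.622). miR-124, which holds down non-neuronal transcripts in neurons, had intensities of 37066, 37846 and 40084. miR-128 had 36559, 34490 and 37784. Both had their lowest share on naive 2, which for miR-128 was 4.56%, beside 5.79% on naive 1 and 5.31% on naive 3. The order of ranks 3 to 5 depended on the probe taken. With signals summed or averaged over probes, miR-128 came first of these 3, then miR-125b-5p and miR-124. The dimmer probe of miR-124 had a mean intensity of 5842, below 38332 for its brightest. The share of rank 1 was 6.73-fold that of rank 20.

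**Figure D2:**
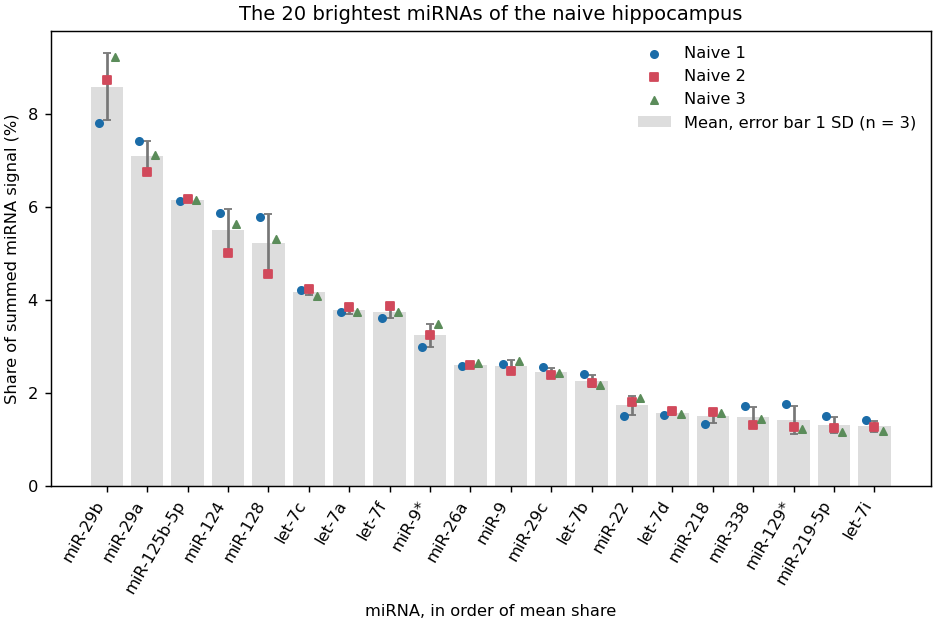
Share of the summed signal (%) of the 20 brightest miRNAs; bars are means, error bars 1 SD (n = 3) and points the arrays. miR-29b leads with 8.59%, and the points of neighbours such as let-7a and let-7f overlap.

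The order at the top was stable between arrays. Ranks 1 to 6, 9, 12 and 13 were held by the same miRNA on all 3 arrays, and 9 miRNAs were among the 10 brightest on every array. Of the 20 brightest, 17 were shared by all 3. Neighbours in the ranking kept their order on all 3 arrays in 12 of 19 pairs among the 20 brightest. The pairs that swapped were let-7a and let-7f, miR-26a and miR-9, miR-22 and let-7d, let-7d and miR-218, miR-218 and miR-338, miR-338 and miR-129*, and miR-219-5p and let-7i. For these the order of the means is not larger than the spread between arrays. Over all 13861 pairs of the 167 detected miRNAs, 93.4% stood in 1 order on the 3 arrays. The median range of ranks over the arrays was 0 for ranks 1 to 10, 3 for ranks 11 to 20, 4 for ranks 21 to 50, 6 for ranks 51 to 100 and 8 for those beyond. On the other 13 arrays, 9 to 10 of the naive 10 brightest and 17 to 19 of the naive 20 were again among the brightest 10 and 20.

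Grouped by seed, the miR-29 and let-7 families gave the largest shares. The miR-29 family (seed AGCACCA), which targets collagens and other matrix genes, summed to 18.1% ± 0.565 over 3 members. The let-7 family (seed GAGGUAG), known for its rise as cells leave the dividing state, summed to 18.0% ± 0.327 over 8 members, all detected on all 3 arrays. The seed of miR-125b-5p and miR-125a-5p (CCCUGAG) followed with 6.63% ± 0.0290 over 3 members, of which miR-351 was not detected on all 3. Within let-7, the shares ran from 4.18% for let-7c, through 3.77% for let-7a, 3.74% for let-7f, 2.25% for let-7b, 1.56% for let-7d and 1.28% for let-7i, to 0.208% for miR-98. Within the miR-29 set, miR-29c had 2.45% ± 0.0822.

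These family members are close in sequence, and their probes are close too. A probe is complementary to its miRNA from the 3′ end and is 10 to 23 bases long, so it often leaves out part of the seed. The median probe of the miRNAs detected on all 3 arrays paired with 5 of the 7 seed bases. Of the 19 matched miRNAs among the 20 brightest, 7 had a probe whose target stretch differed by 1 base from another miRNA on the array. These were miR-29a and miR-29c, and let-7c, let-7a, let-7f, let-7b and let-7d. Over all 311 matched miRNAs the number was 42. How far the signal of each of these includes its near copy was not tested, and their separate levels are uncertain. The probe target of miR-29b differed by 4 bases from miR-29c, its nearest other miRNA, with bases that run past miR-29c counted as differences.

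The level differed with the probe. Among 130 miRNAs with more than 1 probe detected on all 3 arrays, the brightest gave a median of 2.21 times the signal of the dimmest. The brightest was the longer in 128 of these 130. The gap was 13.9-fold for miR-129*, 11.1-fold for miR-125b-5p, 10.5-fold for miR-30b-5p, 8.85-fold for miR-153 and 7.56-fold for miR-382. For miR-129* the probes differ by a single added base at the 3′ end, as the sequences show, written 5′ to 3′.
miR-129* probe of 18 bases: atgctttttggggtaagg
miR-129* probe of 17 bases: atgctttttggggtaag

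The longer of these had intensities of 11086, 9467 and 8642 on naive 1 to 3, and the shorter 833, 662 and 599. Both were highest on naive 1 and lowest on naive 3, so the probes differed in level but not in the order of the arrays.

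The named lists of miRNAs describe detection by cell type. They were written with earlier results of these data known, so detected shares of lists, here and below, are descriptions only. Of 21 neuron-enriched miRNAs, 18 (85.7%) were detected on all 3 arrays, beside 47.7% of all miRNAs, and the list summed to 22.5% ± 1.20 of the signal. Its 4 brightest were miR-124, miR-128, miR-9* and miR-9, followed by miR-218 (1.49%) and miR-129* (1.41%). miR-132, which neuronal activity induces, ranked 45th at 0.418%, and miR-212, from the same transcript, 115th. Those not detected were miR-330, miR-138* and miR-218*. Of 5 oligodendrocyte miRNAs, 3 were detected: miR-338 at 1.49% ± 0.202, miR-219-5p at 1.30% ± 0.179 and miR-219-2-3p at 0.135%.

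**Figure D3:**
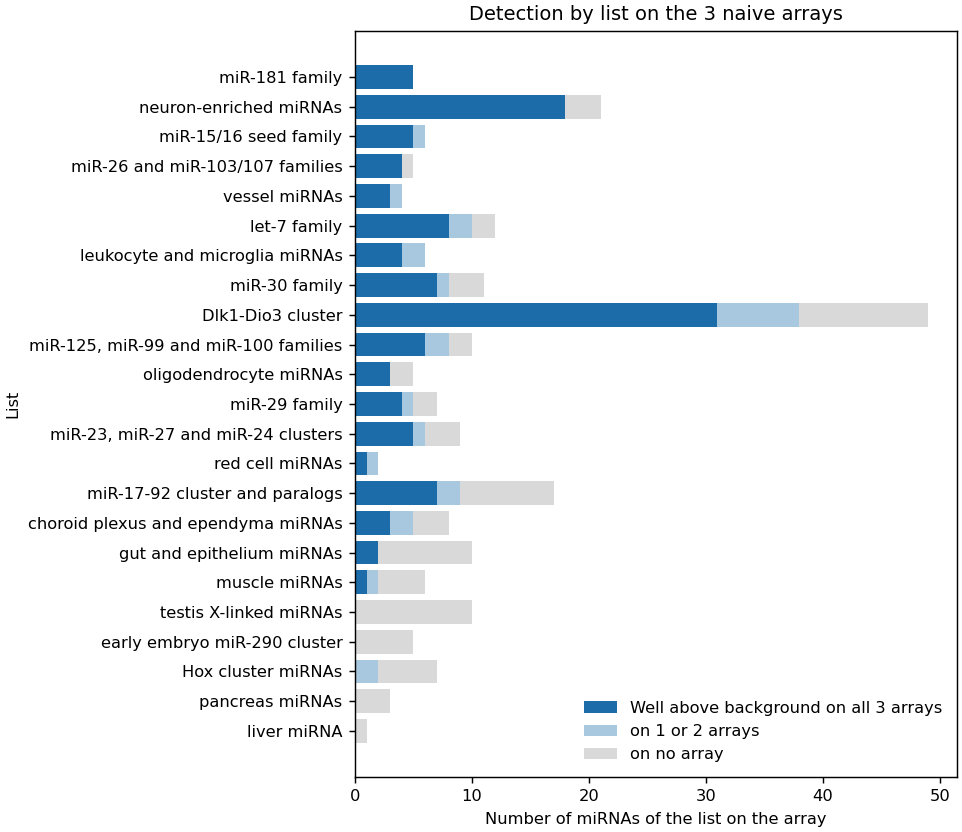
Number of miRNAs of each list that were detected on all 3, on 1 or 2, or on no naive array. Neuron-enriched miRNAs were detected on all 3 for 18 of 21, and the testis, early embryo, pancreas and liver lists for none.

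Lists for other organs were mostly silent. None of the 10 X-linked testis miRNAs, the 5 of the early embryo miR-290 cluster or the 3 of the pancreas was detected on any naive array, and neither was miR-122, the main miRNA of hepatocytes, with intensities of -10.8, 5.2 and 0.1. Of 7 miRNAs of the Hox clusters, miR-10a-5p and miR-10b were detected on 1 array and the rest on none. Of 10 gut and epithelium miRNAs, 8 were not detected, among them the miR-200 family, and miR-192 and miR-194 were detected on all 3 at 0.0306% and 0.0202%. Over these 6 lists 32 of 36 miRNAs were detected on no array, beside 127 of all 350 (36.3%). In the muscle list miR-1, miR-133a, miR-206 and miR-208 were not detected, while miR-133b was on all 3 (162, 314 and 140) and miR-499 on 2 (34.1, 68.5 and 51).

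Blood and vessel miRNAs were detected too. On all 3 arrays these were 4 of 6 leukocyte and microglia miRNAs, 1 of 2 red cell and 3 of 4 vessel miRNAs, beside 47.7% of all miRNAs. Of the choroid plexus and ependyma list 3 of 8 (37.5%) were detected on all 3, below that share. Its members miR-211, miR-449a and miR-34c* were detected on no array. Of the leukocyte and microglia list, miR-150 (0.189%), miR-146b (0.0864%), miR-142-3p (0.0519%) and miR-146a (0.0402%) were detected on all 3, miR-223 on 2 and miR-142-5p on 1. Of the red cell list, miR-451 was detected on all 3 (0.0945%) and miR-144 on 1. Of the vessel list, miR-126 of endothelial cells (0.516% ± 0.0938, rank 40), its partner strand miR-126* and miR-143 of smooth muscle (0.572% ± 0.434, rank 38) were detected on all 3, and miR-145, encoded beside miR-143, on 1. The mean of miR-143 rests on naive 2: its share was 0.354%, 1.07% and 0.290% on naive 1 to 3, so that without naive 2 it lay below miR-126 on both arrays.

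Among the shared families, all 5 members of miR-181, 7 of 11 of miR-30 and 5 of 6 of the miR-15/16 seed family were detected on all 3, beside 47.7% of all miRNAs. miR-30c led its family with 0.687%, miR-181a with 0.648% and miR-16 with 0.883%. miR-26a gave 2.60% ± 0.0311 and miR-103 0.934%. Beside miR-125b-5p, its list held miR-99a at 1.25%, miR-125a-5p at 0.474% and miR-100 at 0.339%. miR-23b (1.27%), miR-24 (0.757%) and miR-27b (0.575%), whose probes map to 1 cluster on chromosome 17, were of the same order. The miR-17-92 cluster and its paralogs, known for driving proliferation, reached 0.592% ± 0.0270 over 17 members, of which 7 (41.2%) were detected on all 3, near the share of all miRNAs. Its brightest were miR-19b (0.154%), miR-106b (0.109%) and miR-20a (0.0799%).

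The imprinted Dlk1-Dio3 cluster on chromosome 6 is a run of miRNAs expressed from the maternal allele and prominent in brain. Of its 49 miRNAs on the array, 31 (63.3%) were detected on all 3 naive arrays, 7 on 1 or 2 and 11 on none, beside 47.7% on all 3 over all 350 miRNAs, and together they gave 5.32% ± 0.210 of the signal. miR-434 led at 0.917%, with intensities of 6308, 6427 and 6430. miR-127 followed at 0.855% (5584, 6180 and 6154), miR-136 at 0.653% and miR-376a at 0.402%. The signal was spread unevenly over neighbours: miR-134, which acts in dendrites, had only 19.2, 17.2 and 14.2 and was not detected. Of 42 miRNAs placed on chromosome X, 9 (21.4%) were detected on all 3, again beside 47.7% of all miRNAs.

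The 58 passenger strands, marked with a star by the older naming, were detected on all 3 arrays for 15 (25.9%), against 152 of the 292 other miRNAs (52.1%). They gave 5.48% of the signal. Among 13 pairs with both strands detected, the partner was the brighter in all but 2, by a median of 16.4-fold over the 13. The exceptions were the 2 brightest stars. miR-9* gave 3.23% ± 0.254 against 2.58% ± 0.112 for miR-9, with a ratio of miR-9 over miR-9* of 0.880, 0.760 and 0.767 on naive 1 to 3. miR-129* gave 1.41% ± 0.303 against 0.159% ± 0.0346 for miR-129, with ratios of 0.113, 0.108 and 0.119. The next stars were miR-136* (partner over star 3.36), miR-29c* (24.8) and miR-140* (1.36). The names chosen after their values were seen are miR-543* and miR-330*, which were detected on all 3 while miR-543 and miR-330 were detected on none. As these are ratios between probes, they hold the probes' own difference in binding. Both exceptions depended on the probe taken. The dimmer probe of miR-129* had a mean intensity of 698, below 1100 for the brightest of miR-129. That of miR-9* had 15962, below 18059 for the brightest of miR-9. Between the dimmer probes the star was still the brighter, as miR-129 had 572 and miR-9 had 6271.

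The 10 miRNAs that the study went on to follow after injury lay between ranks 84 and 216 of the 350, with 8 detected on all 3 arrays and a summed share of 0.517% ± 0.0196. miR-379 was the brightest at rank 84, with 857, 923 and 921. miR-146b (515, 654 and 650) and miR-15b (489, 729 and 602) stood at ranks 103 and 104, and miR-92a (385, 519 and 475) at 113. miR-181c, miR-365 and miR-17-5p had ranks 124, 132 and 155. miR-758, with 101.2, 131 and 118, was close to the edge of detection. miR-19a was detected on 2 arrays (86.6, 141 and 119) and miR-18a on 1 (18.3, 36.3 and 26.0).

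The spread between arrays was small for most miRNAs. It holds differences between rats together with those of labelling, hybridisation and array background, which cannot be told apart here. Signals were divided by the 75th percentile of the array over probes detected on all 16 arrays (2561, 2916 and 2740 on naive 1 to 3) and put on a log2 scale. The SD over the 3 arrays had a median of 0.13 over the 167 detected miRNAs, and 64 of them had an SD under 0.1. Without naive 1 the median was 0.072, and without naive 2 or naive 3 it was 0.12 and 0.13. The median was 0.10 for the 50 brightest and 0.15 for those beyond the 100 brightest. Replicate spots of a probe varied by a median of 4.54% (CV) within an array, and the standard error of a probe mean was 0.026 on the log2 scale. The SD between arrays exceeded that error for 160 of the 167 miRNAs. That error covers spots within an array only, so the count is not a measure of differences between rats. Arrays correlated at r = 0.982 to 0.991 across the 167 miRNAs (Spearman 0.976 to 0.989). These are across miRNAs on shared probes, which are not independent replicates.

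The smallest SD was that of miR-136*, at 0.0090, with intensities of 1256, 1448 and 1355. Its second probe did not share this steadiness, with 465, 622 and 596 and an SD of 0.14, and with signals summed over probes the SD was 0.047. Next were miR-29c (0.012), miR-335 (0.012), miR-101a (0.016) and miR-99a* (0.031), whose second probes had SDs of 0.030, 0.027, 0.021 and 0.042. At the other end, 8 miRNAs had an SD over 0.5.

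**Figure D4:**
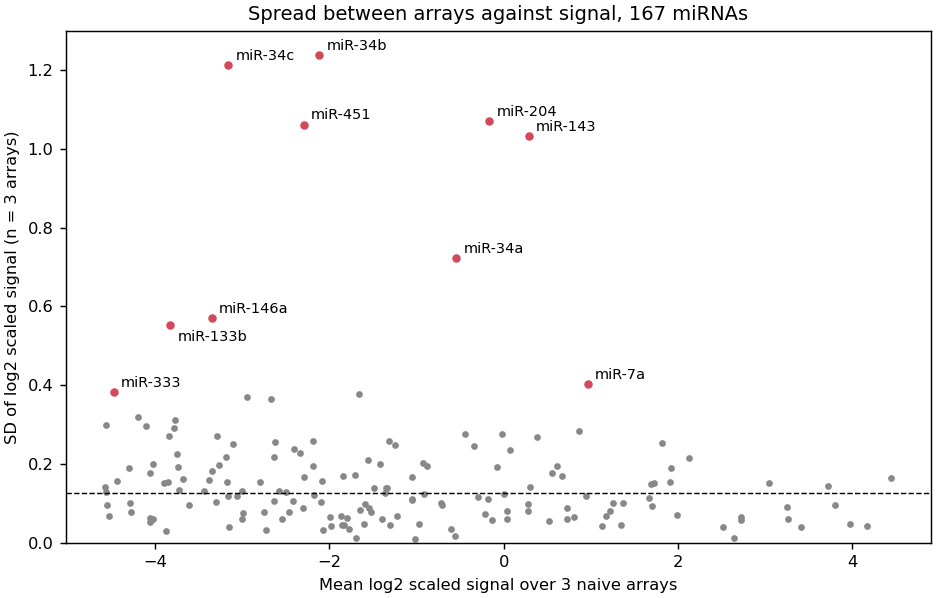
SD of the log2 scaled signal over the 3 naive arrays against its mean, for the 167 miRNAs detected on all 3. The dashed line is the median, 0.13, and the 10 largest SDs are named, led by miR-34b at 1.24.

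The largest was miR-34b, a miRNA of cells with motile cilia, whose intensity was 254, 1605 and 612 on naive 1 to 3 (SD 1.24, a 5.55-fold range). miR-34c, from the same transcript on chromosome 8, had 122, 743 and 314 (SD 1.21). The target stretch of the miR-34b probe differed from miR-34c by 1 base, so these may not be separate measurements. miR-204, the abundant miRNA of the choroid plexus epithelium, had 1380, 6094 and 1722 (SD 1.07, 3.88-fold). miR-451 of red cells had 537, 1221 and 264 (SD 1.06, 4.35-fold). miR-143 had 2238, 8110 and 2062 (SD 1.03, 3.70-fold). All of these were highest on naive 2. On the log2 scale miR-143 reached 1.48 on naive 2, above the 13 other arrays of the series (-0.91 to 0.01), whereas miR-204 at 1.06 lay within their range (-0.96 to 2.56). The naive 2 values of miR-34b (-0.861), miR-34c (-1.973) and miR-451 (-1.256) also lay within the range of those arrays. On naive 1, miR-34b (-3.335) and miR-34c (-4.396) lay below the lowest of them (-2.72 and -3.66). On naive 3, miR-451 (-3.378) lay below the lowest of them (-2.55).

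The next were miR-34a, miR-146a and miR-133b. miR-34a, which p53 induces and which shares its seed with miR-34b, went another way: it was highest on naive 1, with 3025, 1798 and 1208 (SD 0.72). miR-146a, induced in inflammation, had 181, 442 and 240 (SD 0.57), and miR-133b had the SD 0.55. miR-7a was lowest on naive 1, with 3630, 6644 and 6341 (SD 0.40), and nearly equal on the other arrays. miR-333_v11.0, with 137, 149 and 90.7 (SD 0.38), closed the 10. On the log2 scale, miR-34a on naive 1 (0.24) lay above the highest of the 13 other arrays (0). So did miR-146a on naive 2 (-2.721, others up to -2.99). The same held for miR-133b on naive 1 and naive 2 (-3.983 and -3.214, others up to -4.13). It also held for miR-7a on naive 2 and naive 3 (1.188 and 1.21, others up to 1.06). On naive 3, miR-34a (-1.182) lay below the lowest of them (-0.81). Of these 10 miRNAs, 6 had another probe detected on all 3 arrays, and it was highest on the same array in all 6. The second probe of miR-204 had 417, 1852 and 512, that of miR-143 had 484, 1823 and 462, that of miR-451 had 189, 478 and 95.9, and that of miR-34a had 1436, 811 and 557. Without naive 2, the SD of miR-204 was 0.16 and that of miR-143 was 0.15, and 4 miRNAs in place of 8 had an SD over 0.5, which were 7 without naive 1 and 10 without naive 3. Without naive 1, the SD of miR-34a was 0.34.

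**Figure D5:**
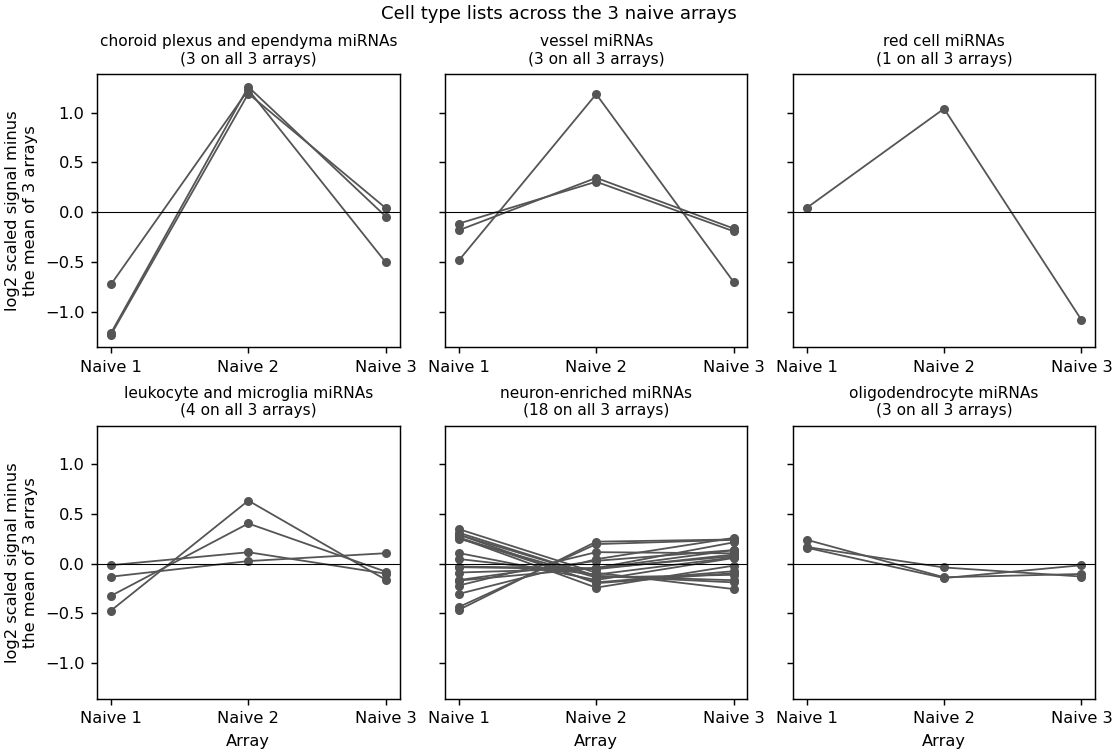
Log2 scaled signal minus the mean of the 3 arrays, 1 line for each miRNA detected on all 3, by list. The 3 choroid plexus and ependyma miRNAs peak on naive 2, as do the vessel and red cell miRNAs, while 1 of 18 neuron-enriched miRNAs does.

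Set out by list, 7 of the 8 miRNAs with an SD over 0.5 belonged to the lists for the choroid plexus and ependyma, vessels, red cells, leukocytes and microglia, or muscle, and miR-34a to none of these. Those 5 lists hold 12 of all 167 detected miRNAs. Lists and members were chosen with earlier results of these data known, so the overlap is a description only. All 3 detected miRNAs of the choroid plexus and ependyma list were highest on naive 2, as were all 3 of the vessel list, 3 of 4 of the leukocyte and microglia list, miR-451 and miR-133b. Over these 5 lists that makes 11 of 12, beside 65 of all 167 detected miRNAs (38.9%). The muscle list, which gives 1 of the 12, was counted here and not with the lists for other organs. The 12 were read on the same arrays and are not independent replicates. Among them miR-34b and miR-34c share a transcript, and miR-126 and miR-126* share a hairpin. The peak on naive 2 was not particular to these lists: it was also found for 5 of 5 miRNAs of the miR-23, miR-27 and miR-24 clusters, 6 of 7 of the miR-17-92 list, 4 of 5 of the miR-15/16 seed family and 2 of 2 of the gut and epithelium list, with median SDs of 0.18, 0.15, 0.12 and 0.12. Counting the members of the 5 lists below detection too, 23 of 26 were highest on naive 2, beside 145 of all 350 (41.4%). In the 6 lists for other organs it was 20 of 36, and 32 of those 36 were detected on no array. Of the 26, 7 were detected on no array, and the order of such signals is near background. The members not detected on all 3 included miR-448 (9.2, 118 and 18.7), miR-145 (8.7, 78.9 and 16.7), miR-144 (45.7, 145 and 25.8) and miR-223 (41.0, 164 and 51.3). Others were flatter, as miR-142-5p (29.6, 37.1 and 21.6) and miR-206 (14.2, 18.9 and 14.2). After scaling, miR-449a (-0.7, 15.4 and 14.9) was highest on naive 3 and miR-208 (3.9, 0.5 and -2.1) on naive 1. The 5 lists summed to 1.62%, 3.54% and 1.55% of the signal on naive 1, 2 and 3. The neuron and oligodendrocyte lists summed to 26.6%, 23.8% and 25.9%, and 1 of their 21 detected miRNAs was highest on naive 2. miR-204, the most abundant of the choroid plexus list, was detected in every naive rat. What part tissue from the plexus, meninges or blood had in these differences was not tested.

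Sequence features differed between detection classes, as a description. A 5′ uridine, the base that Argonaute prefers, began 52.7% of the matched miRNAs detected on all 3 arrays, 34.6% of those detected on 1 or 2 and 41.3% of those detected on none, and 15 of the 19 matched among the 20 brightest. The median GC content was 45.5% in the first class and 50% in each of the others. The median brightest probe was 19 bases long for miRNAs detected on all 3 and 16 bases long for those detected on none. The part of probe length in detection was not tested.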

How the data were processed

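Total RNA of whole hippocampus was end-labelled with Cy3 and hybridised to Agilent Rat miRNA arrays, 1 colour. For every spot, the authors deposited an intensity obtained with Agilent Feature Extraction 9.5.3.1 as background-subtracted and spatially detrended signal, not scaled between arrays. The authors' processed table holds intensities for 741 probes of 292 miRNAs and served as an alternative. Of 272 probes detected on all 3 naive arrays, 88.2% to 92.3% an array lay within 1% of a constant times Feature Extraction's total probe signal; how the rest were made is not stated. Replicates were not pooled.

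From the scanner files, control spots and outlier spots (196 to 324 of 7000 an array) were left out, and no spot was saturated. Replicate spots were averaged, and a probe was detected where at least 50% of its spots were marked well above background. Arrays were divided by the 75th percentile over the 285 probes detected on all 16 arrays. The brightest probe stood for a miRNA. Log2 values were held at -6.18, the median of the dimmest detected signals. Coordinates follow the rn4 build of the array design. Alternatives used limma 3.58.1 in R 4.3.3 (normexp, offset 50) and pandas in Python. Functions were tested on simulated data.

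The miRNAs named are the 20 brightest, up to 4 of each list, the 10 largest and 5 smallest SDs, 3 at each side of detection, 10 the study followed, the 5 brightest stars and the 5 widest probe gaps. Members and lists were chosen with earlier results of these data known. The 24 lists hold 256 miRNA names, of which 220 are on the array. No test was run.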

Additional observations from a re-analysis of the deposited data

How the results depend on the processing

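Other detection rules were tried for the counts of detected miRNAs, other probe summaries, normexp and the authors' table for the ranking measures, and these with other scalings and filters for the median SD. Each naive array was left out for all of these. miRNAs detected on all 3 arrays numbered 154 where every spot had to be marked and 181 where a single spot was enough, and those detected on none 139 and 102. Leaving out 1 array gave 167 to 202 and 127 to 148. The share of the 10 brightest was 48.0% with normexp and 52.1% in the authors' processed table, which holds fewer miRNAs, against 50.1% as given, and 49.6% to 50.7% with 1 array left out. Counts of 10 and 17 became 10 to 11 and 17 to 20. The median SD was 0.17 with no scaling and 0.065 over every miRNA, where values at the floor have no spread, and 0.072 to 0.13 with 1 array left out, the lowest without naive 1. Of the 10 brightest, 9 to 10 were shared with each alternative order. Alternatives for the SDs of single miRNAs were chosen after seeing the data. Over 0.5 as given, miR-146a had 0.37 and miR-133b 0.35 with normexp, and each had 0.22 without naive 2. With quantile normalization miR-146a had 0.48 and miR-133b 0.51. No paired analysis was possible because no group was compared with another. Signal over background limits what can be said of dim miRNAs: the dimmest detected probe was at 92.0 on naive 1.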
